A study of Mus musculus with 24 samples.

Results

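The MHC class I presentation genes are 9 genes that build, load or switch on the class I molecule: B2m, H2-K1, H2-D1, H2-T23, Tap1, Tap2, Tapbp, Erap1 and Nlrc5. They were chosen by gene name for their role, with earlier results of these data known, and all 9 were found among the 14106 genes of the count table. Of these rows 7 carry the plain gene name, while the names of H2-D1 and Nlrc5 end in a suffix that could stand for an overlapping gene. Among other genes named below, Psme1, Psmb5, Uggt1, Jak1, Rfxank, Lck and Xist carry the same suffix, so reads of a neighbour may be counted there too. All 9 passed the filter on low counts. The values are read counts for polyadenylated RNA of primary B lymphocytes from mouse spleen, cultured with interleukin 4 and lipopolysaccharide, activated for 28 h and then kept for 32 h with 2 µM 4-hydroxytamoxifen, 60 h in all. In the 3 Spt5-depleted libraries the cells were Supt5hFl/- Rosa26ERT2-cre/+, which gives them 1 floxed and 1 null copy of Supt5, the Spt5 gene, and a Cre recombinase that tamoxifen activates. In the 3 WT libraries the cells were Rosa26ERT2-cre/+ and received the same drug, so both groups carried the recombinase and the null allele was present only in the depleted group, where its effects and those of the induced deletion cannot be told apart. Cre is expressed from Rosa26, a locus active in most cell types. The labels disagree on whether these B cells are mature or immature, and the sources used here give neither the age or sex of the mice nor their H-2 haplotype.

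Class I molecules show peptides from a cell's own proteins to CD8 T cells. The proteasome cuts proteins into peptides, the TAP transporter (Tap1 and Tap2) carries these into the endoplasmic reticulum, Erap1 trims them there, and tapasin (Tapbp) holds an empty heavy chain next to TAP until a well-fitting peptide has bound. The finished complex is a heavy chain, a peptide and the light chain beta-2 microglobulin (B2m), and without B2m the complex hardly reaches the surface. NLRC5 switches on part of these genes without binding DNA itself. It joins factors on the S, X and Y boxes of class I promoters: RFX on the X1 box, CREB and related proteins on the X2 box, and NF-Y on the Y box. B lymphocytes express class I at high levels, together with the class II molecules whose genes depend on CIITA, a relative of NLRC5.

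Part of this arrangement can be read in the promoters of several members, and those of the heavy chains and the light chain are printed here for what they share, with those of Tap1 and Tapbp for contrast. RefSeq held a promoter for 7 of the 9 members, under the build GRCm38.p6, whereas the counts were made on mm9, so the coordinates apply to the sequences alone. Each sequence is the 250 bases before the first listed start site, 5′ to 3′ on the strand of the gene. Capitals mark matches on either strand to CCAAT (the Y box), TGACG (the core of the X2 box), GGGGATTCC (a kB site), 2 forms of the interferon-stimulated response element or ISRE (the first is TTTC, any 2 bases and TTTC, the second is TTTCNCTTC) and TATAA (the TATA box). Matches that overlap run together.
H2-K1 (chr17:34000348-34000597, minus strand): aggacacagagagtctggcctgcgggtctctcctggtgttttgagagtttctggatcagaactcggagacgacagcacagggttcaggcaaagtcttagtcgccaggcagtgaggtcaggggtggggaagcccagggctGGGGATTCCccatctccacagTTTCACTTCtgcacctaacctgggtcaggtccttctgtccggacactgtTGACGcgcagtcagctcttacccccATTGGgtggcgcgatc
H2-D1 (chr17:35262844-35263093, plus strand): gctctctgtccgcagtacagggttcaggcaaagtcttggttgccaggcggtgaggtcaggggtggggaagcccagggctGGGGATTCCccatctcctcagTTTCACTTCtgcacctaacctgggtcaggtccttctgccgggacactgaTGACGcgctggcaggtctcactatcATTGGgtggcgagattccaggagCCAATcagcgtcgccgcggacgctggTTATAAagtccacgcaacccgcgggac
B2m (chr2:122147437-122147686, plus strand): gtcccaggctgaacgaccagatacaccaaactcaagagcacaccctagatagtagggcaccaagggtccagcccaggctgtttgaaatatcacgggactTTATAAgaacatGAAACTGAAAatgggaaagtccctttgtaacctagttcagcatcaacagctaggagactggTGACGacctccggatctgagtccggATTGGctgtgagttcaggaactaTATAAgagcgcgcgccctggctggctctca
H2-T23 (chr17:36032702-36032951, minus strand): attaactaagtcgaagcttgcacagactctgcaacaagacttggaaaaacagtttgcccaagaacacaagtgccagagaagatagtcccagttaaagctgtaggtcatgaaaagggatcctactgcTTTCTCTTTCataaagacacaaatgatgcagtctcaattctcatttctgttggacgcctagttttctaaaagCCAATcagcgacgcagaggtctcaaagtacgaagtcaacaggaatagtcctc
Tap1 (chr17:34187306-34187555, plus strand): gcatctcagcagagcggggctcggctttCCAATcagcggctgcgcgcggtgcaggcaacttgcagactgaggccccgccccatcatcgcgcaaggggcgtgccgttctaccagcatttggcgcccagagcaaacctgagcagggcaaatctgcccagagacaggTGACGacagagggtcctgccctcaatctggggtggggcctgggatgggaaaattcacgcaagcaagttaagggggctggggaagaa
Tapbp (chr17:33919228-33919477, plus strand): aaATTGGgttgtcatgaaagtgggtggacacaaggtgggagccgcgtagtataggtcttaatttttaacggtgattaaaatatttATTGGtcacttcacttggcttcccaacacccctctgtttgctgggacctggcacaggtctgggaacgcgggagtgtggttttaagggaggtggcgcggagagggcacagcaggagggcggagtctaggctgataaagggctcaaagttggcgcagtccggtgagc

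H2-K1 and H2-D1 hold the same series of a kB site, an ISRE, an X2 core and a reversed Y box. Over the 100 bases from the kB site to the end of that Y box, 89 are identical between both genes. In H2-K1, H2-D1 and B2m the X2 core is followed, after exactly 20 bases, by the reversed Y box. Of 32851 RefSeq promoter windows of the same length, from 27025 genes, 30 windows (0.0913%) hold that pair on either strand. H2-M3, another class I heavy chain, is among them. The kB site is in 0.213% of all windows, the X2 core in 17.8%, the Y box in 33.8%, the first ISRE form in 2.98%, the second in 2% and the TATA box in 22.8%. The H2-T23 window holds a Y box and the first ISRE form, and no TGACG. Tap1 is transcribed away from its neighbour Psmb9, a subunit of the immunoproteasome, and their start sites lie 226 bases apart, so the printed Tap1 window reaches the start site of Psmb9. The Tapbp window holds Y box matches alone, and the Erap1 window none of the motifs. A match is a description of letters and not a bound site. The spacing of 20 bases was noticed in these sequences and chosen after the expression values were known. Of 26 genes with it, 21 were tested, of which 5 were called higher and 5 lower (against 31.8% and 30.6% of all tested genes), with a median log2 fold change of -0.017.

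**Figure D1:**
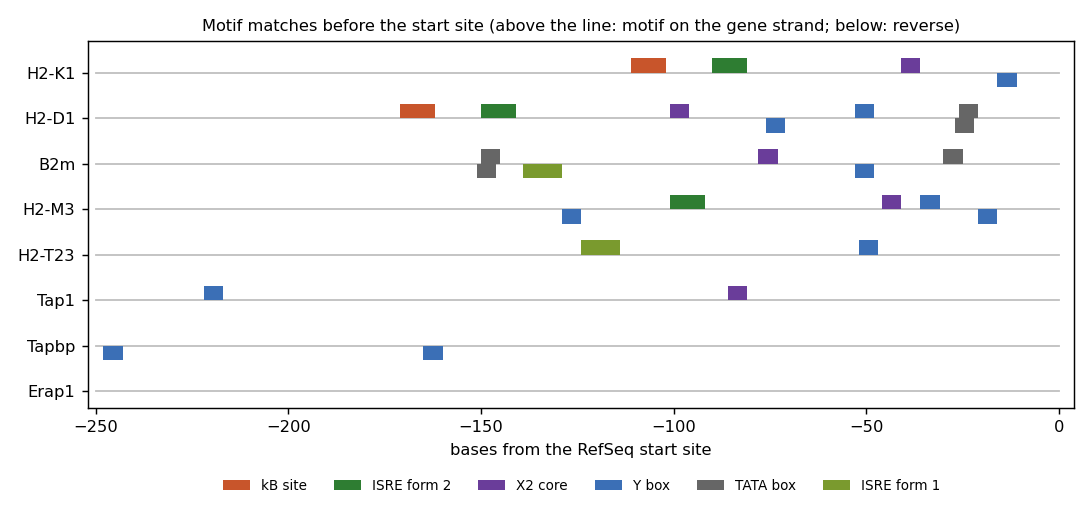
Positions of motif matches in the 250 bases before the RefSeq start site of 7 MHC class I presentation genes and of H2-M3; the x axis gives bases from the start site, and each block is a match on the gene's strand (above the line) or on the other strand (below it). H2-K1, H2-D1, B2m and H2-M3 share an X2 core followed by a reversed Y box, and the Erap1 line is empty.

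The libraries held between 17306549 and 25649611 counts, with all 3 depleted libraries below the shallowest of WT. Supt5, the targeted gene, had 160, 160 and 192 CPM (counts scaled to a common library size with edgeR's TMM factors) in WT and 10.5, 9.18 and 13.6 CPM in depleted libraries. Xist and Y-linked genes divided the libraries as the genotype did: Xist had 468 to 915 CPM in WT and 1.00 to 1.73 CPM in depleted libraries, and Ddx3y had 39.3 to 44.1 CPM in depleted and at most 0.042 CPM in WT libraries. Genotype and this difference cannot be told apart in any result below. The cells had high levels of B cell markers, with a summed level of 4931 to 4975 CPM over 7 markers in WT and 4049 to 4699 CPM in depleted libraries, of which 2 were called lower and 5 were not called. Macrophage and monocyte markers summed to 23.6 to 32.5 CPM in WT and to 28.1, 63.2 and 49.4 CPM in depleted replicates 1, 2 and 3, with 4 of 6 tested markers called higher. T cell markers summed to 60.7 to 66.2 CPM in WT and to 29.8, 48.4 and 32.0 CPM in depleted replicates, with 2 of 8 called lower. Those 2, Cd2 and Lck, made up most of each sum. The other 6, among them the Cd3, Cd4 and Cd8 genes, were not called and their groups overlapped. NK cell markers summed to 10.8 to 15.7 and 5.58 to 9.04 CPM, with 1 of 2 tested called lower. Of 3 tested dendritic cell markers, whose sums were 85.4 to 99.7 and 95.8 to 97.5 CPM, 2 were called higher, and most of each sum was Flt3. Neutrophil markers were at most 3.93 CPM in sum and erythroid markers at most 0.563 CPM. Beside these counts of markers called, 62.4% of all tested genes were called, 31.8% higher and 30.6% lower. The part of these cell types in the results was not tested. In bulk RNA, fewer cells of a type and less RNA per cell cannot be told apart. Nothing in the labels says that libraries were made from different animals, so each p-value rests on the spread among these libraries, which may be technical.

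After Spt5 depletion the genes for tapasin and Erap1 rose and those for the Qa-1 heavy chain and the transactivator NLRC5 fell. The light chain, the 2 classical heavy chains among the members and both TAP genes did not pass the test. Of the 9 members, 2 were called higher (Tapbp and Erap1), 2 lower (H2-T23 and Nlrc5) and 5 were not called (edgeR's quasi-likelihood test, adjusted p under 0.05 over 12024 genes). Of all tested genes 62.4% were called, 31.8% higher and 30.6% lower, so the members' 4 of 9 stand below the background share, with 9 genes too few to say more. Their log2 fold changes ran from -0.57 to 0.70 with a median of 0.11, against 0.0047 over all tested genes. The groups did not overlap for 5 members, and for 67.5% of all tested genes. In the authors' deposited table, 4 members had an adjusted p under 0.05, the same 4 and in the same direction, where 52.0% of its genes did. For the settings compared at the end, the share of all genes called was 62.3% with DESeq2's size factors, with upper-quartile factors and with limma-voom, 59.7% with DESeq2's Wald test, 56.1% without a filter, 64.9% with a higher filter, 61.3% with a replicate block, 49.6% at an adjusted p under 0.01 and 36.3% with a minimum of 1.5-fold (19.3% higher, 17.0% lower). It was 60.8%, 58.4% and 60.6% without WT replicates 1, 2 and 3, and 54.8%, 54.8% and 55.7% without depleted replicates 1, 2 and 3.

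**Figure D2:**
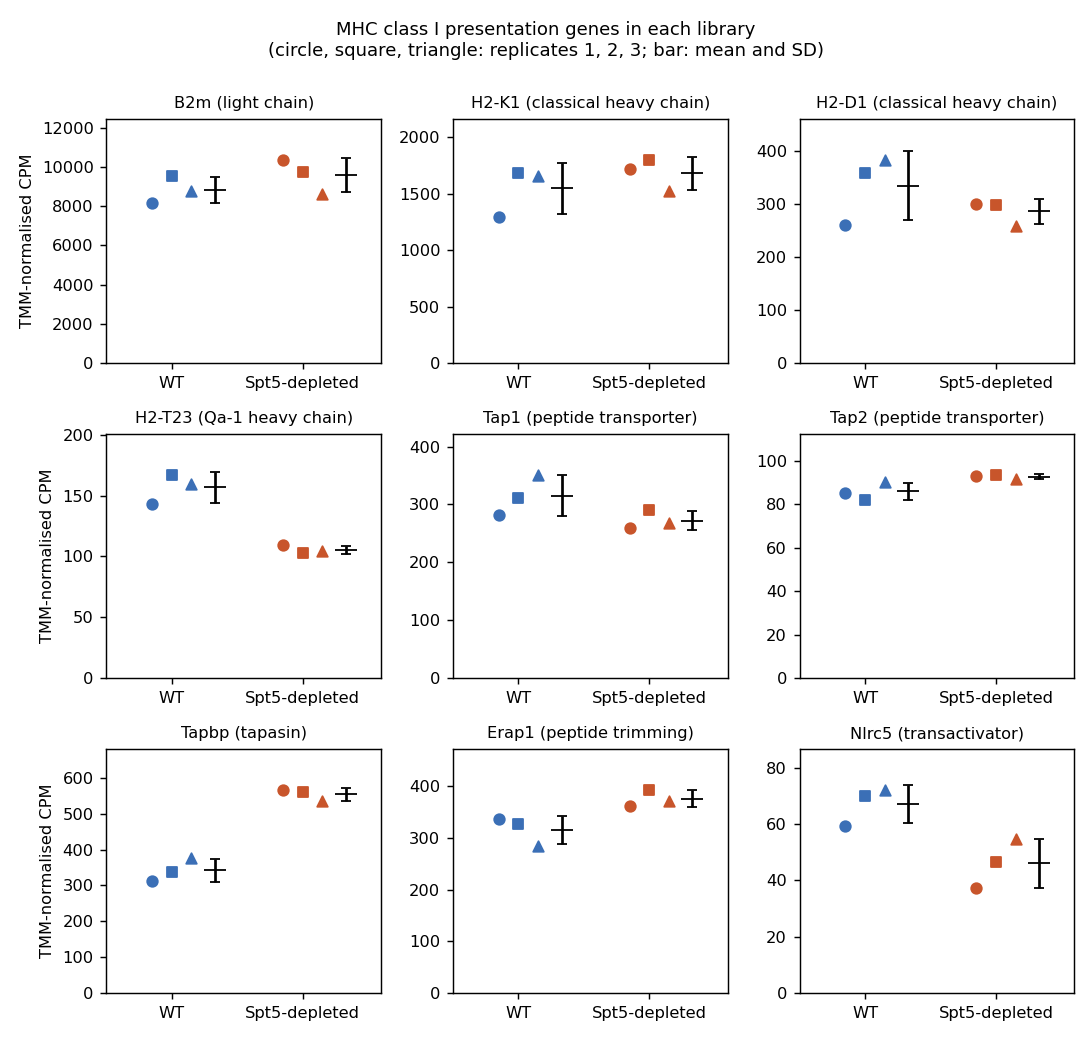
Level of each MHC class I presentation gene in each library, in TMM-normalised CPM on axes that start at 0; points are libraries (blue WT, red Spt5-depleted, marker shape by replicate number) and bars give mean and SD (n = 3). Tapbp and Erap1 are higher and H2-T23 and Nlrc5 lower in every depleted library, while the groups overlap for B2m, H2-K1, H2-D1 and Tap1.

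B2m, the light chain shared by all class I molecules, took 0.776% to 0.899% of all counts in WT and 0.931% to 1.07% in depleted libraries. It had 8183, 9536 and 8749 CPM in WT and 10370, 9726 and 8636 CPM in depleted libraries. The groups overlapped, since depleted replicate 3 lay below WT replicates 2 and 3. Its log2 fold change was 0.12 ± 0.10 (SE, n = 3 each), with a 95% interval from -0.10 to 0.34 (edgeR adjusted p = 0.331). Leaving out 1 library gave values from 0.057 (without depleted replicate 1) to 0.19 (without depleted replicate 3), with 0.062 without WT replicate 1, and no call. B2m was called higher when the libraries were scaled by their totals alone (log2 fold change 0.28, adjusted p = 0.0159), a setting that raises the median of all genes to 0.16. Of all genes 63.7% were called in that setting, 41.3% higher and 22.4% lower.

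H2-K1 and H2-D1 encode classical heavy chains. H2-K1 had 1289, 1686 and 1660 CPM in WT and 1714, 1801 and 1520 CPM in depleted libraries. WT replicate 1 was the lowest, and the other 5 libraries ran from 1520 to 1801 CPM. Its log2 fold change was 0.12 ± 0.11 (SE, n = 3 each), with a 95% interval from -0.12 to 0.35 (adjusted p = 0.362), and it was called higher with library totals alone (0.28, adjusted p = 0.0308). Without WT replicate 1 the value was -0.00074 (adjusted p = 0.9955), and without 1 of the other libraries it ran from 0.066 (depleted replicate 2) to 0.19 (depleted replicate 3), with 0.18 without WT replicate 2. H2-D1 had 260, 359 and 383 CPM in WT and 299, 299 and 259 CPM in depleted libraries. WT replicate 1 lay at the level of the depleted libraries and WT replicates 2 and 3 above all of them. The log2 fold change of H2-D1 was -0.23 ± 0.13 (SE, n = 3 each; adjusted p = 0.141). Without WT replicate 1 it was -0.38 and H2-D1 was called lower (adjusted p = 0.00262), as were 3678 of the 12245 genes tested in that setting. Without WT replicate 3 it was -0.12 (adjusted p = 0.425). Class I heavy chain genes are close relatives and can share reads, so the values of H2-K1, H2-D1 and the genes of the Q, T and M regions are uncertain as single genes.

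H2-T23 encodes the heavy chain of Qa-1, a non-classical molecule that shows leader peptides of other class I chains to the receptor NKG2A on NK cells. It had 143, 167 and 160 CPM in WT and 109, 103 and 104 CPM in depleted libraries. All depleted libraries lay below all WT libraries. The difference was a fall of 1.49-fold (log2 fold change -0.57 ± 0.09 SE, n = 3 each, adjusted p = 4.99e-05).

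Neither gene of the TAP transporter was called. Tap1 had 281, 311 and 352 CPM in WT and 259, 291 and 267 CPM in depleted libraries. Depleted replicate 2 lay above WT replicate 1, and the other libraries did not cross. Its log2 fold change was -0.21 ± 0.10 (SE, n = 3 each; adjusted p = 0.0684). Tap1 was called lower without WT replicate 1 (-0.29, adjusted p = 0.0144), as were 3678 of the 12245 genes tested in that setting. Without WT replicate 3 it was -0.13 (adjusted p = 0.224). Tap2 had 85.3, 82.2 and 90.3 CPM in WT and 93.2, 93.7 and 91.5 CPM in depleted libraries. The groups did not overlap, but were close. The log2 fold change of Tap2 was 0.11 ± 0.08 (SE, n = 3 each; adjusted p = 0.254), and it was called higher with library totals alone (0.27, adjusted p = 0.011).

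Tapbp, which encodes tapasin, rose the most of the 9. It had 312, 337 and 376 CPM in WT and 568, 560 and 535 CPM in depleted libraries. The lowest depleted library was well above the highest WT library. The rise was 1.62-fold (log2 fold change 0.70 ± 0.09 SE, n = 3 each, adjusted p = 9.92e-06), the only one among the members above 1.5-fold. Erap1, the aminopeptidase that trims peptides in the endoplasmic reticulum, had 336, 327 and 285 CPM in WT and 362, 394 and 371 CPM in depleted libraries. The groups did not overlap, and WT replicate 3 was the lowest. Erap1 rose 1.19-fold (log2 fold change 0.25 ± 0.09 SE, n = 3 each, adjusted p = 0.0236). That call was lost without WT replicate 3 (adjusted p = 0.0838) and without depleted replicate 2 (adjusted p = 0.116), where 31.0% and 28.0% of all genes were called higher.

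Nlrc5 fell, and on the log2 scale it was the member with the widest spread among depleted libraries (SD 0.27). It had 59.5, 69.9 and 72.3 CPM in WT and 37.2, 46.4 and 54.6 CPM in depleted libraries, from 667 to 1757 counts per library. Every depleted library lay below every WT library, and depleted replicate 1 was the lowest. The fall was 1.46-fold (log2 fold change -0.54 ± 0.13 SE, n = 3 each, adjusted p = 0.00228). Depleted replicate 1 also had the lowest summed macrophage and T cell markers of the depleted libraries, and the part of these cells in the level of Nlrc5 was not tested. Without that replicate Nlrc5 was still called lower (-0.41, adjusted p = 0.00915), as were 26.7% of all genes. The Nlrc5 row carries the suffix that may mark overlap, so reads of a neighbour may be counted there.

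Abundant genes tended to be lower in the depleted libraries, so each member was set beside all genes of like level. Over the 578 tested genes whose mean level passed 300 CPM the median was -0.25, the quartiles were -0.61 and 0.12, and 70.9% were called. B2m, H2-K1, H2-D1, Tapbp and Erap1 are in that band, of which Tapbp and Erap1 stood above the upper quartile, B2m and H2-K1 just under it and H2-D1 near the median. With bands set by the WT mean alone, the upper band had a median of -0.37 and an upper quartile of 0.0014, Tap1 was in it too, and B2m, H2-K1, Tapbp and Erap1 were above that quartile, while H2-D1 and Tap1 lay between the median and it. The band from 100 to 300 CPM, with H2-T23 and Tap1, had a median of -0.06 over 1808 genes and a lower quartile of -0.40, and H2-T23 lay below that quartile. The band from 30 to 100 CPM, with Tap2 and Nlrc5, had a median of 0.015 over 3330 genes and a lower quartile of -0.34, and Nlrc5 lay below it. No test was made of these positions.

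Ratios of 2 genes within a library hardly depend on how libraries are scaled, and 12 were computed. With 3 libraries against 3, the exact two-sided permutation test cannot go below p = 0.1, which is an adjusted p = 0.133 over the 12, so none can pass. A ratio here is of reads, without gene length, and serves only to compare libraries. Its difference largely restates the fold changes of its 2 genes. The share of other gene pairs whose ratios separate the groups was not computed. Of single tested genes, 67.5% did so. Per read of B2m there were 0.158, 0.177 and 0.190 reads of H2-K1 in WT and 0.165, 0.185 and 0.176 in depleted libraries, with the groups interleaved (difference of mean log2 ratios 0.0091, exact p = 1). H2-K1 reads per read of H2-D1 were 4.96, 4.70 and 4.33 in WT and 5.73, 6.03 and 5.88 in depleted libraries, higher in all 3 (difference in log2 0.34, exact p = 0.1). The promoters of these 2 genes are the pair printed above with 89 of 100 bases in common. H2-T23 per B2m was lower in all 3 depleted libraries (-0.68, exact p = 0.1), as was H2-D1 per B2m (-0.33, exact p = 0.1).

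Tap1 reads per read of Tapbp were 0.901, 0.923 and 0.935 in WT and 0.456, 0.519 and 0.4997 in depleted libraries. The WT values lay close together and the depleted values far below them (difference in log2 -0.91, exact p = 0.1). This was the largest difference of group means in size among the 12 ratios. Tap1 per Tap2 was 3.30, 3.79 and 3.89 in WT and 2.78, 3.10 and 2.92 in depleted libraries, without overlap (-0.32, exact p = 0.1). Tap1 per B2m differed by -0.32 and Erap1 per Tap1 by 0.46, both without overlap (exact p = 0.1). Nlrc5 per Ciita did not separate the groups. It was 0.639, 0.791 and 0.965 in WT and 0.586, 0.770 and 0.819 in depleted libraries (-0.13, exact p = 0.6), and in both groups replicate 1 was lowest.

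**Figure D3:**
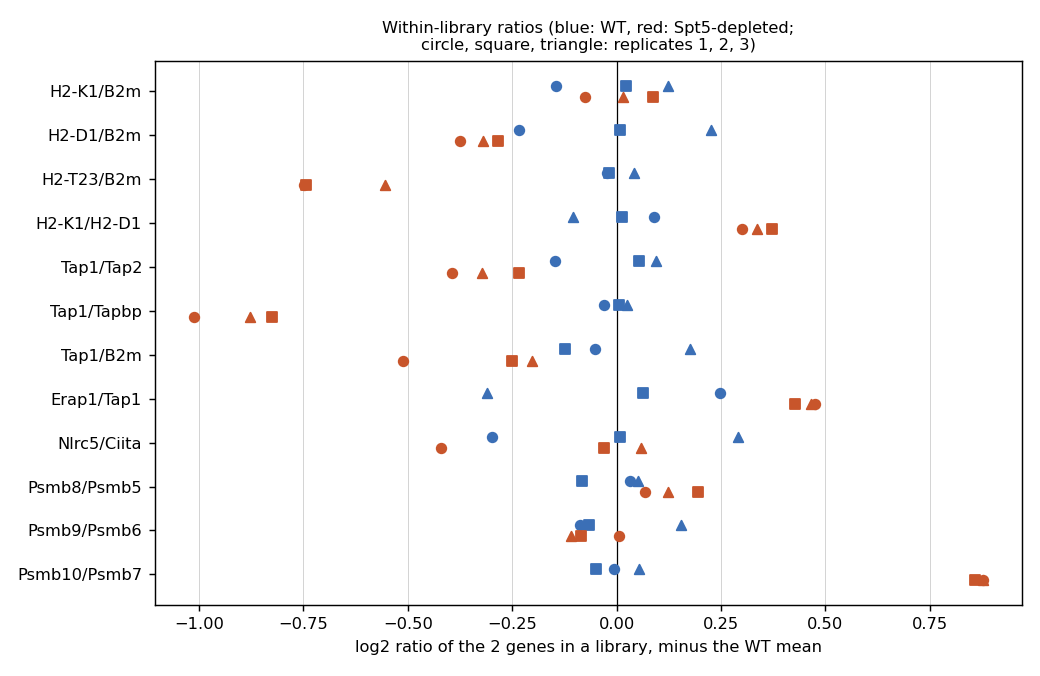
Log2 ratio of 2 genes in each library, centred on the WT mean, for 12 pairs; blue points are WT and red points Spt5-depleted libraries. Tap1/Tapbp lies furthest below the WT values (-0.91) and Psmb10/Psmb7 furthest above (0.87), while H2-K1/B2m, Nlrc5/Ciita and Psmb9/Psmb6 overlap.

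Other genes of the class I pathway are given by role, each list beside the background of 62.4%. Of 29 further class I and class I-like heavy chains named, 16 were in the table and 12 were tested, of which 3 were called higher, 3 lower and 6 were not called (median log2 fold change -0.0083). Hfe, a class I-like protein of iron uptake control that shows no peptide, rose from 4.63, 3.95 and 4.65 CPM to 36.2, 37.9 and 33.6 CPM, 8.11-fold (adjusted p = 9.81e-11). Mr1, which shows vitamin B metabolites to MAIT cells, rose from 4.51, 5.14 and 3.95 to 12.95, 10.9 and 12.1 CPM (2.64-fold, adjusted p = 1.28e-06). H2-M3, which shows formylated bacterial peptides and has the X2 and Y box pair in its promoter, fell from 35.2, 44.7 and 40.0 to 30.3, 29.2 and 29.7 CPM (1.34-fold, adjusted p = 0.00207). H2-M5, with 60 to 77 counts in WT and 16 to 23 in depleted libraries, fell 3.32-fold (adjusted p = 3.37e-05).

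The proteasome subunits that cut peptides mostly fell. Of the 5 genes of the immunoproteasome and its activator PA28, Psmb8, Psmb9 and Psme1 were called lower and Psmb10 and Psme2 were not called (median log2 fold change -0.44). Without WT replicate 3 both were called higher, at 0.31 and 0.34 (adjusted p = 0.00526 and 0.00292). Psme1, a PA28 subunit, stood at -0.54 (adjusted p = 0.000185), Psmb8 at -0.48 (adjusted p = 0.000273) and Psmb9 at -0.44 (adjusted p = 0.00202). The 3 constitutive subunits that these replace, Psmb5, Psmb6 and Psmb7, were all called lower, with log2 fold changes of -0.62, -0.37 and -0.67. With bands set by the WT mean, Psmb8, Psme1 and Psmb7 were over 300 CPM. They lay between the quartiles of all genes there (-0.71 and 0.0014, median -0.37). In the band from 100 to 300 CPM the lower quartile was -0.44, with Psmb9 at it, Psmb6 above it and Psmb5 below it. Psmb8 per Psmb5 was 0.13 higher on the log2 scale in depleted libraries without overlap (exact p = 0.1), and Psmb9 per Psmb6 did not separate the groups (-0.064, exact p = 0.6). Psmb10 reads per read of Psmb7 were 0.246, 0.239 and 0.257 in WT and 0.455, 0.450 and 0.455 in depleted libraries. The 3 depleted values lay almost on each other and far above the WT values (0.87 in log2, exact p = 0.1). Psmb9, Tap1, Psmb8 and Tap2 are consecutive genes of the RefSeq chromosome, and along that row the log2 fold changes were -0.44, -0.21, -0.48 and 0.11.

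Chaperones of peptide loading went both ways. Of 6 tested, Calr, Canx and Pdia3 were called lower, Uggt1 higher, and Tapbpl, a relative of tapasin that edits peptides, and Bcap31 were not called (median log2 fold change -0.11). Pdia3, the partner of tapasin in the loading complex, fell 1.57-fold (log2 fold change -0.65, adjusted p = 1.94e-05), against the rise of Tapbp. Canx, calnexin, stood at -0.45 (adjusted p = 0.000415) and Uggt1, which checks the folding of glycoproteins, at 0.40 (adjusted p = 0.000661). Tapbpl had 39.7, 53.9 and 54.0 CPM in WT and 48.2, 57.3 and 56.0 CPM in depleted libraries, with overlap (adjusted p = 0.359). Of 6 tested peptidases that trim or destroy peptides, Thop1 (-0.80, adjusted p = 5.29e-06) and Blmh (-0.68, adjusted p = 4.68e-06) fell, Npepps (0.25, adjusted p = 0.0208) and Lnpep (0.55, adjusted p = 0.0288) rose, and 2 were not called. The calls of Npepps and Lnpep were each lost when single libraries were left out: Npepps without WT replicate 2 or depleted replicate 2 or 3 (adjusted p = 0.0775, 0.0826 and 0.05025) and Lnpep without any 1 of the depleted replicates (adjusted p = 0.072, 0.0569 and 0.0772), with log2 fold changes of 0.57, 0.55 and 0.51. Without WT replicate 3, the lowest library, the value of Lnpep was 0.34 (adjusted p = 0.00692).

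Of the 8 other transactivators and promoter-binding factors, 5 were called lower and 0 higher (median log2 fold change -0.28). Nfya, a subunit of the Y box factor, fell from 60.0, 62.4 and 60.6 to 34.4, 36.2 and 34.8 CPM (1.74-fold, adjusted p = 1.67e-06). Creb1, which binds the X2 box, stood at -0.57 (adjusted p = 0.000132). Ciita, which switches on class II genes, fell from 93.2, 88.4 and 74.97 to 63.5, 60.3 and 66.6 CPM (-0.43, adjusted p = 0.0013). The RFX genes Rfx5, Rfxap and Rfxank were not called (0.03, -0.11 and 0.19). With library totals alone, 3 of the 8 were called lower.

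Of 13 tested genes that carry interferon signals to class I promoters, 12 were called, 6 in each direction (median log2 fold change -0.20). The genes called higher were receptor chains and kinases, namely Jak2 (0.95, adjusted p = 9.61e-07), Jak1 (0.77, adjusted p = 2.03e-06), Ifnar1, Ifnar2, Tyk2 and Ifngr1. The genes called lower included the nuclear factors Irf8 (-1.52, adjusted p = 3.17e-09), Stat2 (-0.87, adjusted p = 0.000113), Irf1 and Irf2, and the receptor chain Ifngr2. The groups overlapped for Irf1, whose call was lost without WT replicate 2 or 3 or depleted replicate 1 or 3 (adjusted p = 0.0689, 0.188, 0.0771 and 0.0677). Irf2 lost its call without WT replicate 2 or depleted replicate 3 (adjusted p = 0.0741 and 0.0695), Ifngr2 without depleted replicate 2 (adjusted p = 0.0602), and Ifngr1 without WT replicate 3 or depleted replicate 1 or 2 (adjusted p = 0.0524, 0.0558 and 0.0872). This division by role was noticed after the values were seen and was not tested. With library totals alone only 2 of the 13, Irf8 and Stat2, were called lower. Class II presentation genes had 2 of 11 called higher and 5 lower. The lowest values there were those of H2-Ab1 and H2-Eb1, which each encode a class II chain (-0.80 and -0.78, adjusted p = 4.19e-06 and 2.24e-06). Ctss (0.62) and Ifi30 (0.54), enzymes of the class II peptide route, were the genes called higher. Whether class I and class II genes differed was not tested.

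**Figure D4:**
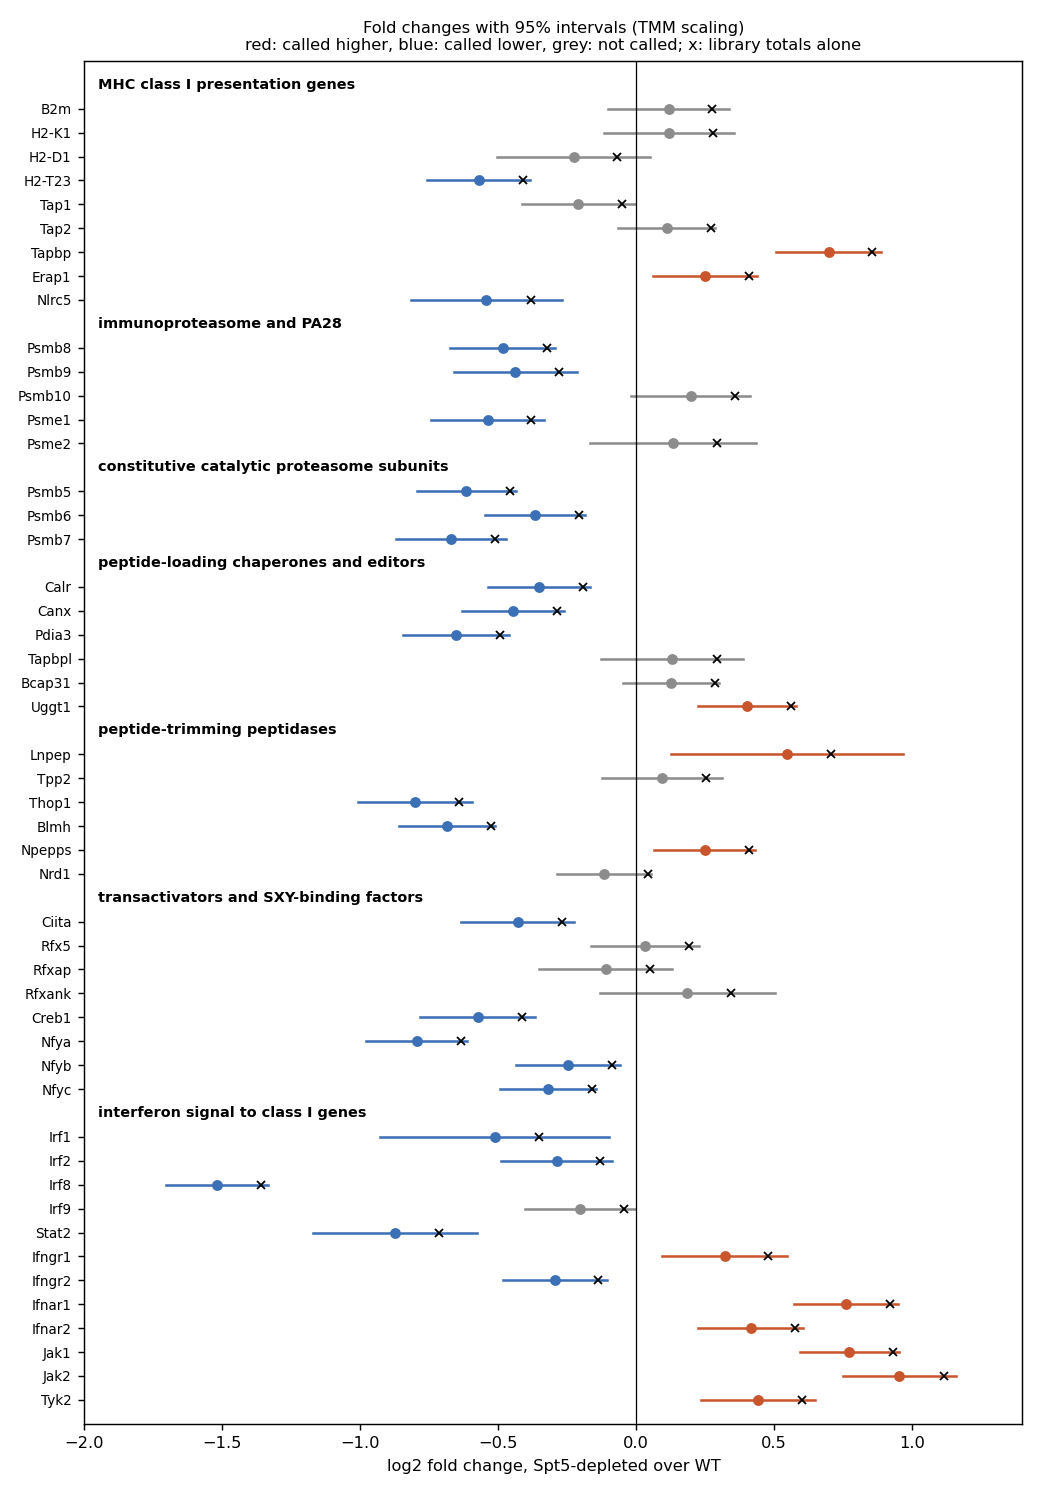
Log2 fold changes of the MHC class I presentation genes and of the reported genes of 6 pathway lists, Spt5-depleted over WT; points and lines are TMM-scaled estimates with 95% intervals (red called higher, blue called lower, grey not called), and crosses are the estimates with library totals alone. Tapbp (0.70) stands apart from B2m, H2-K1 and Tap2 (0.11 to 0.12), and Irf8 has the lowest value among the genes drawn (-1.52); further heavy chains and class II genes are not drawn.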

How the data were processed

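Only the RNA-seq libraries, 3 WT and 3 Spt5-depleted, were used; the 18 samples of other assays were not analysed here. Per the labels' protocols, Trizol was used for extraction and Lexogen's SENSE mRNA-seq kit for the libraries. The submitters' processing notes name the build mm9 and featureCounts 1.5.0-p1, TopHat, Bowtie2 2.1.0, cutadapt 1.10 and DESeq2 1.10.1; no source used here gives the annotation, the strand setting or how reads with several matches were counted. The deposited table holds raw read counts per gene, each row with at least 10 in all, and the authors' log2 fold change and adjusted p-value, used only where that table is named.

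The counts went into edgeR 4.0.16 under R 4.3.3 (filterByExpr, 12024 genes kept; TMM; quasi-likelihood F test, robust, two-sided; Benjamini-Hochberg over all kept genes, threshold 0.05); limma 3.58.1 and DESeq2 1.42.0 served as alternatives. TMM takes most genes as unchanged, although 62.4% were called, and it cannot show a shift of a cell's whole mRNA content. Standard errors come from the F statistic. Ratios used CPM plus 0.5. Chi-square per degree of freedom was 23.9 to 28.1 between WT replicates and 5.65 to 9.40 between depleted replicates, so no library was a copy. WT libraries differed more from each other than depleted libraries did. The members and lists were chosen with earlier results of these data known. Named genes are the members, the genes of the ratios, and up to 2 risen and 2 fallen genes of smallest p per list; others named were chosen after their values were seen. A few genes of the lists are counted but not reported here by name.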

Additional observations from a re-analysis of the deposited data

How the results depend on the processing

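The counts of members called, 2 higher and 2 lower, were the same with limma-voom, DESeq2's Wald test, DESeq2's size factors, upper-quartile factors, without a filter and with a filter at 5 CPM. With library totals alone, which shift the all-gene median from 0.0047 to 0.16 (log2) and the share of calls that are higher from 50.9% to 64.8%, 5 members were higher (B2m, H2-K1 and Tap2 in addition) and 2 lower, and 41.3% of all genes were called higher. At an adjusted p under 0.01, 1 member was higher. With a minimum of 1.5-fold, 1 was higher and 0 lower, against 19.3% and 17.0% of all genes. Leaving out 1 library gave 1 to 2 higher members (1 without WT replicate 3 or depleted replicate 2) and 2 to 4 lower ones (4 without WT replicate 1). No called member changed sign; H2-K1, not called, stood at -0.00074 without WT replicate 1.

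With library totals alone, the immunoproteasome list had 1 gene higher, the peptide-loading chaperones 2 higher, the transactivators 3 lower, the interferon list 2 lower and the class II list 5 higher; the medians of the chaperones and of the class II list turned from -0.11 to 0.05 and from -0.06 to 0.10. With a minimum of 1.5-fold, 1 of the further heavy chains, 0 immunoproteasome genes, 1 chaperone, 1 transactivator and 2 interferon genes were lower, and 0 chaperones, 0 peptidases, 3 interferon genes and 1 class II gene were higher. At an adjusted p under 0.01, 0 peptidases were higher and 3 interferon genes lower. Leaving out 1 library gave 0 to 2 immunoproteasome genes higher (2 without WT replicate 3), 0 to 2 peptidases higher (0 without depleted replicate 2 or 3) and 3 to 7 interferon genes lower (3 without depleted replicate 3). Under all alternatives, the lowest and highest differences of the 12 ratios came from leaving out 1 library. All moves were smaller than the larger of the WT and depleted SDs. Leaving out 1 of 3 values always moves a mean by less than their SD, so that limit could not have been passed. H2-K1/B2m then ran from -0.063 to 0.071, Nlrc5/Ciita from -0.28 to 0.015 and Psmb9/Psmb6 from -0.11 to 0.014, each with a change of sign. The other ratios, whose groups did not overlap, could not change sign in this way.

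With the replicate number as a block, 2 members were higher and 2 lower, and no call among them changed. Deviations of same-numbered libraries from their group means correlated at 0.034, -0.051 and -0.032. With 3 libraries per group, such values cannot show whether the numbers pair the libraries. The lowest count of a member in a library was 667.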
